A study of Mus musculus with 4 samples.

Results

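Complex I, NADH:ubiquinone oxidoreductase, is the entry point of electrons from NADH into the mitochondrial respiratory chain. Its matrix arm oxidises NADH and passes electrons along iron-sulfur clusters to ubiquinone, and its membrane arm pumps protons. A conserved catalytic core is encoded partly in the nucleus and partly in mitochondrial DNA, and a shell of nuclear encoded accessory subunits surrounds it. Assembly factors help to build the complex and are not part of the finished enzyme. In reprogramming of fibroblasts to pluripotency, cells are known to shift from oxidative towards glycolytic metabolism.

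The genes described here are the rows of the deposited expression table whose symbol begins with Nduf, 52 of 32230 symbols. They fell into 37 nuclear encoded subunits of complex I, 8 assembly factors with the prefix Ndufaf, the pair Ndufa4 and Ndufa4l2, and 5 further rows. Ndufa4 carries the historical complex I name but is a subunit of complex IV, cytochrome c oxidase, and Ndufa4l2 is its paralog. Of the 5 further rows, Ndufb4b and Ndufb4c held the same values as Ndufb4 in every library, Ndufa12-ps and Ndufs6b are pseudogenes or gene copies, and Ndufb11b was listed at 0 throughout. The 37 subunits comprised 7 core subunits and 30 accessory ones.

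RNA came from 4F2A mouse embryonic fibroblasts, taken per the labels from male homozygous embryos at 13.5 days post coitum, which carry a doxycycline-inducible cassette of Oct4, Sox2, Klf4 and Myc. Every culture received 2 μg/mL doxycycline from day 0 and was harvested on day 2. The control group received DMSO, the vehicle, and the other group CX-5461, an RNA polymerase I inhibitor that blocks synthesis of ribosomal RNA, in each case for 1 h on day 0. Both groups carried the same cassette and doxycycline, so the comparison is of CX-5461 against DMSO during induced reprogramming, with 2 libraries per group, numbered 2 and 3 in the labels. The labels do not say that the replicates were separate cultures, and the p-values therefore reflect the scatter of these libraries alone, part or all of which may be technical.

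Values are TPM, relative abundances of transcripts in which each library sums to 1000000, corrected for gene length. Between 36.3M and 39.4M reads per library were recovered from these values. DMSO replicate 3 stood apart: mitochondrially encoded genes took 15.3% of its TPM, against 9.96% in DMSO replicate 2 and 9.2% and 9.24% in the CX-5461 libraries. All 7 fibroblast markers were present, led by Col1a1, a collagen, at 3114 to 4321 TPM. Of the keratinocyte markers, Trp63 stayed at 0.0927 to 0.206 TPM and Krt14 lay at 10.8 to 26.9 TPM. Of the endothelial markers, Pecam1 stayed at 0 to 0.0937 TPM and Cdh5 at 0.0927 to 0.324 TPM. Kdr, a receptor also on that list, rose from 6.16 and 6.42 TPM to 23.8 and 24.1 TPM (1.78, limma adjusted p = 0.000729), and Tek fell from 44.3 and 43.7 TPM to 33.9 and 32.6 TPM (−0.39, adjusted p = 0.0299). Of the 5 macrophage markers, Lyz2 stood at 508 to 855 TPM and the leukocyte marker Ptprc at 0.656 to 1.27 TPM. The 4 macrophage markers tested averaged 7.22 to 666 TPM over all libraries (median 26.7), and all 4 differences were positive. Of the fibroblast markers 3 of 7 fell with CX-5461, and 2 of the 4 macrophage markers tested rose. Beside these counts, 8.21% of all genes tested fell and 11.6% rose. Summed fibroblast markers lay at 11784 and 9507 TPM in the DMSO libraries and at 8623 and 8364 TPM with CX-5461, and the summed macrophage markers tested at 571 and 574 TPM against 834 and 929.7 TPM. The part of other cell types in the differences below was not tested, and in bulk RNA fewer cells of a type cannot be told apart from less RNA per cell.

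Transcripts of 12 of the 30 accessory subunits of complex I rose after CX-5461, while 0 of the 7 nuclear core subunits passed the test. The summed level of the 37 subunits was 3257 and 2505 TPM in the DMSO libraries and 3988 and 3937 TPM in the CX-5461 libraries, so the groups did not overlap. The summed level of the 8 Ndufaf genes was 142 and 128 TPM against 158 and 168 TPM, and 1 of the 8, Ndufaf8, rose. A gene passed when its difference in log2(TPM + 1) had an adjusted p under 0.05 in limma, fitted over 14621 genes, a scale on which the change of low genes is understated. By that rule 11.6% of all genes were higher with CX-5461 and 8.21% lower. Subunits rose in 12 of 37 cases (32.4%) and fell in 0. All 37 subunits and all 8 factors passed the filter of a mean of at least 1 TPM. The median difference was 0.40 over the subunits, 0.49 over the accessory ones, 0.18 over the core and 0.11 over the Ndufaf genes, beside 0.07 over all genes tested. Whether accessory subunits, core subunits and assembly factors differed from each other was not tested.

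DMSO replicate 3 bore on the size of this difference. It was the lowest of the 4 libraries for 33 of 37 subunits (89.2%), for 4 of 8 Ndufaf genes and for 41.4% of all genes. The same held for 35 of 40 nuclear genes of complexes III to V tested (87.5%). Among mitochondrial ribosomal protein genes it held for 42 of 79 (53.2%). Between the DMSO libraries, replicate 3 minus replicate 2, the median difference was −0.34 over the subunits and −0.09 over all genes, whereas the CX-5461 libraries differed by −0.02 over the subunits. Without DMSO replicate 3 the median over the subunits was 0.19, beside 0.02 over all genes, and 5 subunits passed. With DMSO replicate 2 left out instead, the median was 0.59 and 26 subunits passed, 4 of them core. Leaving out CX-5461 replicate 2 or 3 gave medians of 0.40 and 0.44 with 0 subunits passing, in fits where 320 and 245 genes of the whole table were still called higher. The lowest CX-5461 library lay above the highest DMSO library for 26 of 37 subunits (70.3%) and 5 of 8 Ndufaf genes (62.5%), against 38.2% of all genes.

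**Figure D1:**
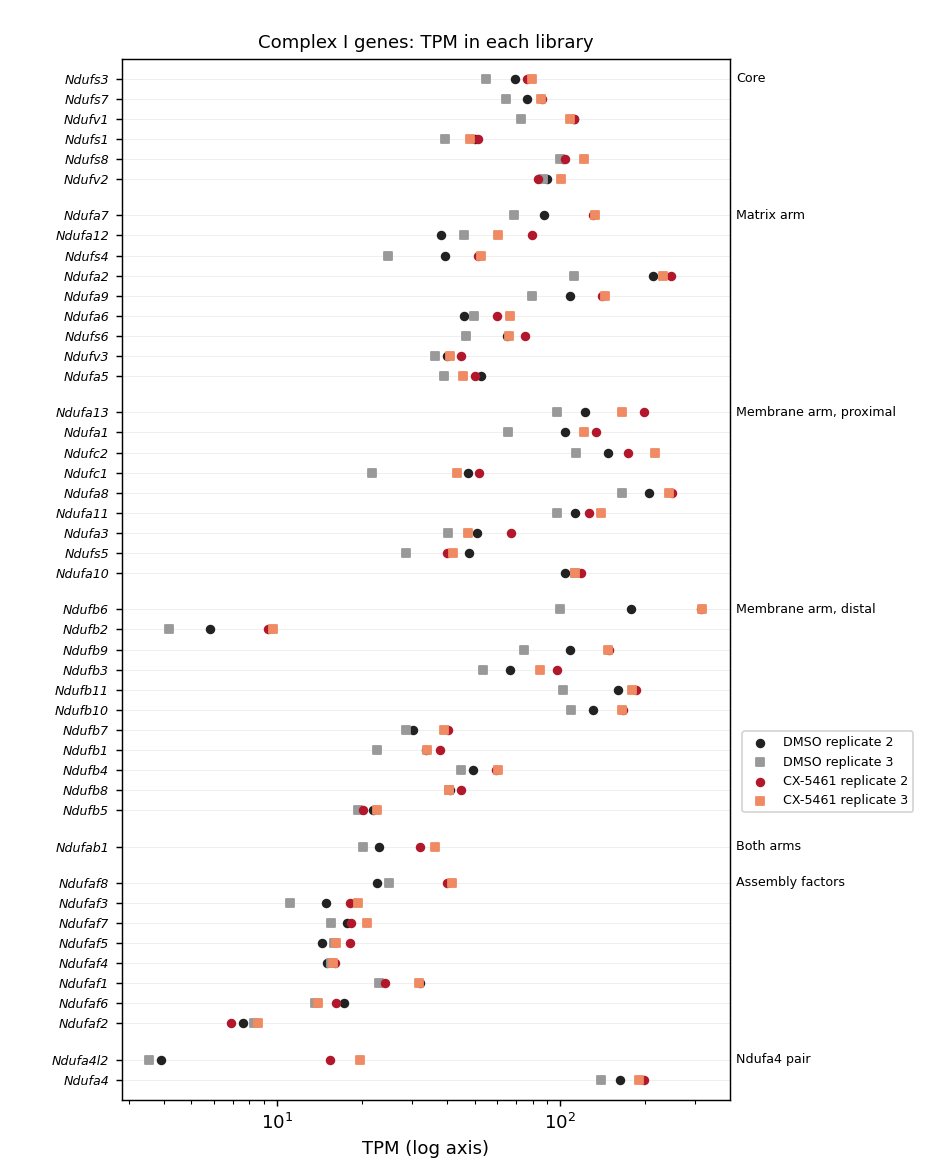
TPM (log axis) of 36 complex I subunits, the 8 Ndufaf assembly factors and the pair Ndufa4 and Ndufa4l2 in each of the 4 libraries, 1 point per library, grouped by place in the complex. DMSO replicate 3 (grey squares) is the lowest point in 32 of these 36 subunits.

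**Figure D2:**
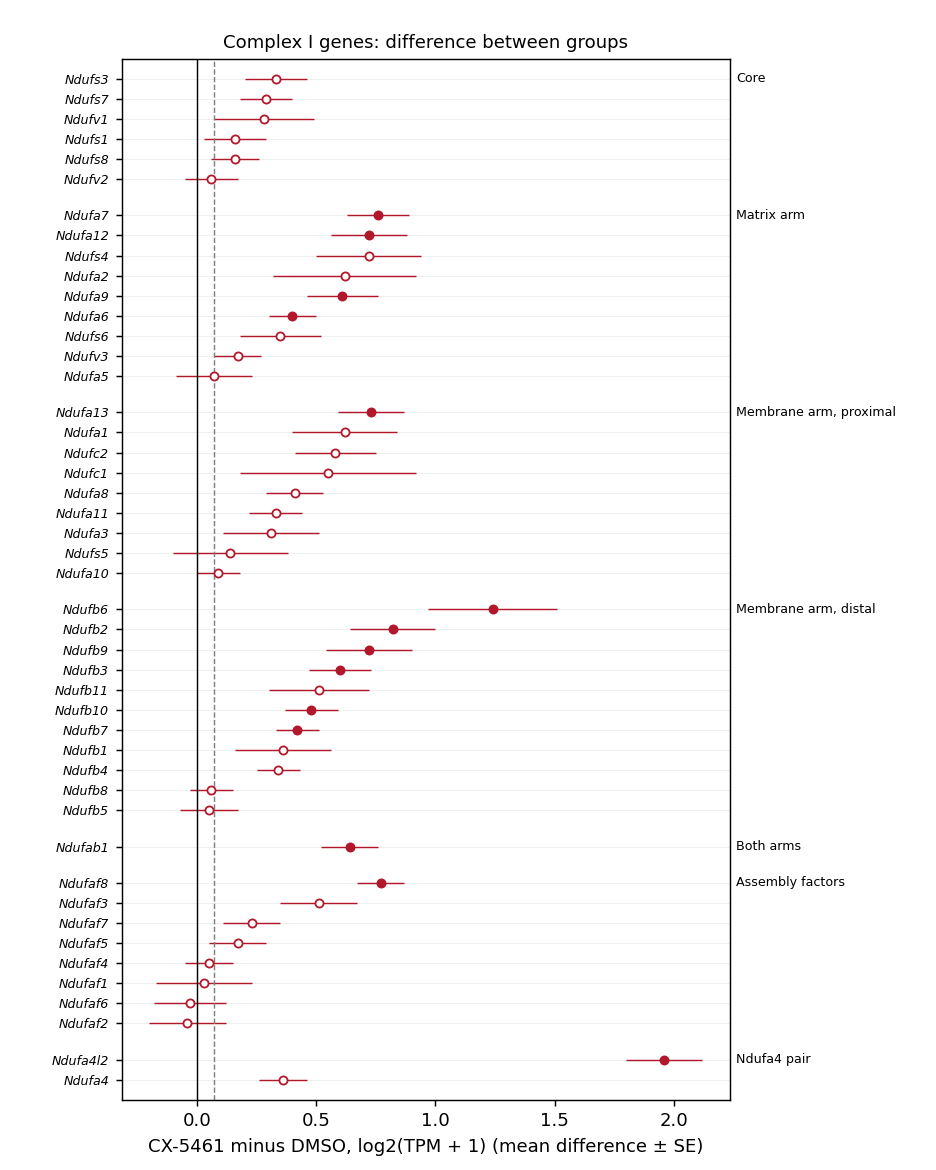
Difference between the groups in log2(TPM + 1), CX-5461 minus DMSO, with its standard error from limma, 2 libraries per group. Filled points passed at an adjusted p under 0.05, the dashed line is the median of all genes tested (0.07), and the filled points lie among the accessory subunits, Ndufaf8 and Ndufa4l2.

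The core subunits hold the cofactors that carry the electrons. None of the 7 passed, and their differences ran from 0.06 to 0.33. Ndufv1, which binds NADH and the flavin, stood at 112 and 72.7 TPM with DMSO and at 112 and 108 TPM with CX-5461, a difference of 0.28 (limma adjusted p = 0.387), and at −0.03 without DMSO replicate 3. Ndufv2, an iron-sulfur subunit of the same module, had 89.6 and 87.0 TPM against 83.7 and 101 TPM. Ndufs1, the largest iron-sulfur subunit, had 50.1 and 39.3 TPM against 51.5 and 48.0 TPM. In these 3 genes of the NADH module the groups overlapped.

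The ubiquinone-reducing module gave the same picture with somewhat more separation. Ndufs3 had 69.6 and 54.7 TPM with DMSO against 76.5 and 79.4 TPM with CX-5461, a difference of 0.33 (adjusted p = 0.130). Ndufs7, which carries the last iron-sulfur cluster before ubiquinone, had 76.4 and 64.4 TPM against 86.4 and 85.5 TPM (0.29, adjusted p = 0.114). Ndufs8 had 102 and 100 TPM against 104 and 121 TPM (0.16, adjusted p = 0.327). For Ndufs3, Ndufs7 and Ndufs8 both CX-5461 libraries lay above both DMSO libraries, yet none of them passed after adjustment over all genes tested. Such separation thus held for 3 of the 7 core subunits (42.9%), beside 38.2% of all genes.

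Among the 9 accessory subunits of the matrix arm 4 rose (44.4%, beside 11.6% of all genes). The median difference over the 9 was 0.61. Ndufa7 stood at 87.5 and 69.0 TPM with DMSO and at 131 and 133 TPM with CX-5461, a difference of 0.76 ± 0.13 (SE, adjusted p = 0.0134), and it passed without DMSO replicate 3 as well (0.59, adjusted p = 0.0225). Ndufa9, which lies near the ubiquinone site, stood at 108 and 79.6 TPM against 141 and 144 TPM (0.61, adjusted p = 0.0427), and also passed without that library (0.40, adjusted p = 0.0399). Ndufa6, a member of the LYR protein family that anchors an acyl carrier protein, rose by less, from 45.8 and 49.6 TPM to 59.9 and 66.5 TPM (0.40, adjusted p = 0.0415). It did not follow the low values of DMSO replicate 3, and it missed the threshold without either DMSO library (adjusted p = 0.0897 without replicate 2 and 0.0677 without replicate 3) and after median-of-ratios scaling (adjusted p = 0.0677). The other 5 genes of the matrix arm ranged from 0.07 to 0.72. Ndufs4 had 39.3 and 24.6 TPM against 51.3 and 52.5 TPM (0.72, adjusted p = 0.0799).

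Ndufa12, the fourth that rose in the matrix arm, shares sequence with a pseudogene, and the 2 rows moved in opposite ways between the CX-5461 libraries. Ndufa12 had 38.0 and 45.7 TPM with DMSO and 79.8 and 60.5 TPM with CX-5461 (0.72, adjusted p = 0.0330). The row Ndufa12-ps had 213 and 207 TPM against 185 and 277 TPM (0.11, adjusted p = 0.729), so it was low in the CX-5461 library where Ndufa12 was high. In recovered reads Ndufa12 had 612 and 830 against 1286 and 958, and Ndufa12-ps 880 and 964 against 762 and 1124. Their sum, in reads per 1000000, was 40.8 and 45.5 with DMSO and 56.0 and 57.4 with CX-5461. Reads may have been divided between these 2 rows, so the value of each alone is uncertain, while their sum was higher with CX-5461 in both libraries. Ndufa12 missed the threshold without DMSO replicate 2 (adjusted p = 0.103) and without DMSO replicate 3 (adjusted p = 0.0674).

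Of the 9 accessory subunits in the proximal membrane arm, next to the matrix arm, 1 rose, Ndufa13 (11.1%, beside 11.6% of all genes). This protein, also known as GRIM-19, had 122 and 97.6 TPM with DMSO and 198 and 166 TPM with CX-5461 (0.73 ± 0.14, adjusted p = 0.0210; 0.57, adjusted p = 0.0658 without DMSO replicate 3). Its exons overlap those of Tssk6, whose difference was 0.29 (adjusted p = 0.724). The other 8 ranged from 0.09 for Ndufa10 to 0.62 for Ndufa1. Ndufc1 showed how far 1 library could set a difference: it had 47.4 and 21.6 TPM against 51.9 and 43.1 TPM, a difference of 0.55 (adjusted p = 0.360) that came to −0.00 without DMSO replicate 3.

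In the distal membrane arm 6 of 11 accessory subunits rose (54.5%, beside 11.6% of all genes). They included the 2 largest differences of any complex I subunit. Ndufb6 had 178 and 100.1 TPM with DMSO and 315 and 318 TPM with CX-5461, means of 139 ± 54.8 and 317 ± 1.99 (SD, n = 2). The difference was 1.24 ± 0.27 (SE, limma adjusted p = 0.0385), and 0.83 (adjusted p = 0.0126) without DMSO replicate 3. Its exons overlap those of Smim27 on the opposite strand, and without knowing whether the counting used strand their reads cannot be told apart. Smim27 had 23.4 and 11.2 TPM against 32.4 and 39.3 TPM, a difference of 1.09 (adjusted p = 0.0934). Ndufb2, the complex I subunit with the lowest TPM, had 5.80 and 4.18 TPM against 9.28 and 9.72 TPM (0.82, adjusted p = 0.0287; 0.63, adjusted p = 0.0772 without DMSO replicate 3), and its exons overlap those of Braf. Both CX-5461 libraries of Ndufb6 and of Ndufb2 agreed closely, and the spread lay in the DMSO pair.

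The other 4 that rose in the distal arm changed by less. Ndufb9, another LYR protein, had 108 and 74.6 TPM against 149 and 148 TPM (0.72, adjusted p = 0.0488), and passed without DMSO replicate 3 (0.45, adjusted p = 0.0302). Ndufb3 had 66.3 and 53.6 TPM against 97.4 and 84.8 TPM (0.60, adjusted p = 0.0305; 0.45, adjusted p = 0.0827 without that library). Ndufb10 had 130.2 and 109 TPM against 167 and 166 TPM (0.48, adjusted p = 0.0316; 0.35, adjusted p = 0.0446 without it). Ndufb7 had 30.2 and 28.6 TPM against 40.1 and 39.0 TPM (0.42, adjusted p = 0.0287; 0.38, adjusted p = 0.0725 without it). In Ndufb7 the DMSO libraries lay close together, so the loss of the call came with little change in size. Exons of Ndufb9 overlap those of Gm49356, a protein-coding gene on the same strand, by 201 bases. Of the 5 that did not pass, Ndufb4 came closest (0.34, adjusted p = 0.0532), Ndufb8 and Ndufb5 stood at 0.06 and 0.05, and the exons of Ndufb5 overlap those of Mrpl47.

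Ndufab1, the mitochondrial acyl carrier protein, sits in both arms of the complex and also serves fatty acid synthesis. It had 22.9 and 20.2 TPM with DMSO and 32.0 and 36.2 TPM with CX-5461, a difference of 0.64 ± 0.12 (SE, adjusted p = 0.0169), and 0.55 (adjusted p = 0.0640) without DMSO replicate 3. All 4 values fell clearly into the 2 groups.

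The assembly factors were expressed at lower levels than most subunits, and 1 of 8 rose with CX-5461 (12.5%, beside 11.6% of all genes). Ndufaf8, which stabilises the assembly factor Ndufaf5, had 22.5 and 24.8 TPM with DMSO and 40.0 and 41.7 TPM with CX-5461, means of 23.6 ± 1.61 and 40.8 ± 1.27 (SD, n = 2). The difference was 0.77 ± 0.10 (SE, limma adjusted p = 0.00576). DMSO replicate 3 was not low for this gene, and without it the difference was 0.83 (adjusted p = 0.0221). Without a CX-5461 library the difference kept its size, at 0.80 without replicate 2 and 0.73 without replicate 3, at adjusted p of 0.0613 and 0.0802. Ndufaf8 lies at chr11:120098928-120100705 (mm10, plus strand), and none of its exons overlap another gene's.

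The other 7 Ndufaf genes lay between −0.04 and 0.51. Ndufaf3, which acts with Ndufaf4 on the ubiquinone module, had 14.9 and 11.1 TPM against 18.1 and 19.4 TPM (0.51, adjusted p = 0.0784; 0.31 without DMSO replicate 3). Its partner Ndufaf4 had 15.1 and 15.6 TPM against 16.1 and 15.8 TPM, a difference of 0.05 (adjusted p = 0.772). Ndufaf5, which hydroxylates an arginine of Ndufs7, had 14.5 and 15.9 TPM against 18.2 and 16.2 TPM (0.17, adjusted p = 0.362). Both CX-5461 libraries of Ndufaf5 lay above both DMSO libraries, but by less than those of Ndufaf8. Ndufaf7, a protein arginine methyltransferase, had 17.7 and 15.5 TPM against 18.3 and 20.8 TPM (0.23, adjusted p = 0.246).

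The remaining 3 factors overlapped between the groups. Ndufaf1, a member of the intermediate assembly complex of the membrane arm, had 32.1 and 23.0 TPM against 24.1 and 31.8 TPM (0.03, adjusted p = 0.941). Ndufaf6, an early factor, had 17.3 and 13.7 TPM against 16.2 and 14.0 TPM (−0.03, adjusted p = 0.901). Ndufaf2, a late factor that binds before the NADH module is complete, had 7.58 and 8.33 TPM against 6.92 and 8.57 TPM (−0.04, adjusted p = 0.878), and its exons overlap those of another transcript. With 174 to 734 recovered reads per library, against at least 272 for the subunits, the factors were measured with fewer reads. A p that missed the threshold does not show that their levels were equal.

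**Figure D3:**
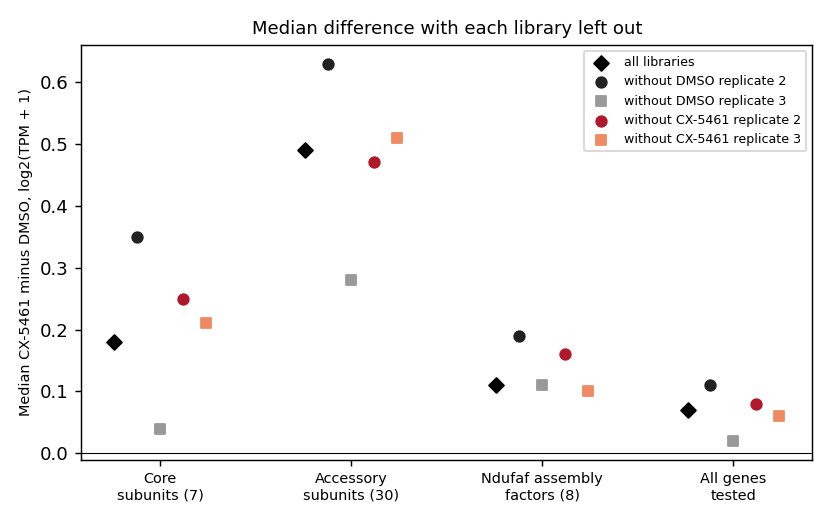
Median difference in log2(TPM + 1), CX-5461 minus DMSO, over the 7 core subunits, the 30 accessory subunits, the 8 Ndufaf genes and all genes tested, with all libraries and with each library left out. Without DMSO replicate 3 the accessory median falls from 0.49 to 0.28 and the core median from 0.18 to 0.04, while the Ndufaf median stays at 0.11.

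Ndufa4l2 had the largest change of any Nduf symbol and was the only one of the 14 called to pass under every setting and with each library left out. This gene, a paralog of Ndufa4 known as a target of the hypoxia-inducible factor, had 3.91 and 3.55 TPM with DMSO and 15.4 and 19.7 TPM with CX-5461, means of 3.73 ± 0.251 and 17.5 ± 3.05 (SD, n = 2), a ratio of 4.7. These values rest on 44 and 45 recovered reads with DMSO and 173 and 218 with CX-5461. The difference was 1.96 ± 0.16 (SE, limma adjusted p = 0.00173), and it ranged from 1.79 to 2.13 with single libraries left out. Its exons at chr10:127514967-127517154 overlap those of Shmt2, which fell from 161 and 163 TPM to 91.2 and 93.0 TPM (−0.81, adjusted p = 0.00253). Ndufa4 itself had 163 and 139 TPM against 197 and 190.5 TPM (0.36, adjusted p = 0.0621). The pseudogene-like row Ndufs6b was variable at 9.78 and 1.49 TPM against 6.16 and 3.99 TPM (0.21, adjusted p = 0.863).

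The stretches upstream of the start were printed for the subunit and the factor with the largest differences in their class, since these are where the transcripts moved most. Capitals mark a match to CCGGAAG, the core letters bound by GABPA (NRF2), a regulator of respiratory genes, on either strand. The 250 bases before the start of Ndufb6 (RefSeq, GRCm38.p6, chr4:40279422-40279671, minus strand) and of Ndufaf8 (chr11:120098684-120098933, plus strand) read, 5′ to 3′:
Ndufb6: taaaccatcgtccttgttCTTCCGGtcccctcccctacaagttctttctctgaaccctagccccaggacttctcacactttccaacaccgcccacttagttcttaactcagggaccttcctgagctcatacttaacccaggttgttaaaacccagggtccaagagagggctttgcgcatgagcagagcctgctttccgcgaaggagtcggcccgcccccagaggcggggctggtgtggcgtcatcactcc
Ndufaf8: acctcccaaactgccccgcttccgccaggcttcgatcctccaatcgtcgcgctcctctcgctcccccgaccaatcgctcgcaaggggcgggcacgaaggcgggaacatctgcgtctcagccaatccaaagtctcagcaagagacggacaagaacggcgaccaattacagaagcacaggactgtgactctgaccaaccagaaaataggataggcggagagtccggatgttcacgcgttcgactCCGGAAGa
The match lies 232 bases before the start in Ndufb6 and 8 bases before it in Ndufaf8.

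Promoter windows of 300 bases (250 before and 50 after the start) from RefSeq were found for 40 of the 45 subunit and factor genes, in 42 windows. Ndufs1, Ndufa2, Ndufb9 and Ndufaf6 were among those without an entry. Each was searched on both strands for 4 sets of letters. The letters AAGATGGCG, which YY1 binds, occurred in 14.3% of these windows and in 1.4% of all 32851 windows. GCATGCGC, bound by NRF1, occurred in 11.9% against 2.71%, CCGGAAG in 14.3% against 8.86%, and AAGGTCA, bound by ESRRA, in 7.14% against 4.72%. A match describes letters only and shows no binding.

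The 6 genes with the YY1 letters had them on the coding strand, 11 to 36 bases after the start, where the letters ATG inside them may be a start codon. They are shown because this set differed most from all promoters, with the match in capitals and up to 10 bases on each side, 5′ to 3′:
Ndufa9: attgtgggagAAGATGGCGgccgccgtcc
Ndufaf8: ggcagggcccAAGATGGCGgcgccctcga
Ndufs7: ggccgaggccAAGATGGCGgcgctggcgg
Ndufs6: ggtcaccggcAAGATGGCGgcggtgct
Ndufs4: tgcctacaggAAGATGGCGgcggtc
Ndufc1: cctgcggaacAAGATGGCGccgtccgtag
Of these 6 genes 2 rose with CX-5461, Ndufa9 and Ndufaf8, and 4 did not pass. The GABPA letters marked 6 genes, of which Ndufb6, Ndufb7 and Ndufaf8 rose, and the ESRRA letters 3 genes, of which Ndufb2 rose:
Ndufb2: gagcagcagtAAGGTCAgccaagagca
Ndufb4: cctgagcctgAAGGTCAgactcgagag
Ndufs5: ttctcgagtgTGACCTTgctcaagtag
In Ndufs5 the capitals are the reverse complement, on the other strand. Of the 5 genes with the NRF1 letters, Ndufa6 rose. These counts stand beside 12 of 37 subunits (32.4%) and 1 of 8 Ndufaf genes that rose, with or without a match. Whether genes with a match rose more often was not tested.

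The 7 core subunits encoded in mitochondrial DNA form the proton-pumping part of the membrane arm, and none of them passed with all libraries in the fit. ND1, the subunit at the ubiquinone site, had 8633 and 13470.3 TPM with DMSO and 9950.1 and 10728 TPM with CX-5461 (−0.06, adjusted p = 0.865). ND2 had 5756 and 10178 TPM against 5780.0 and 5824 TPM (−0.40, adjusted p = 0.356), and ND4L 3754 and 6522 TPM against 3383 and 3651 TPM (−0.49, adjusted p = 0.254). ND3 had 913 and 1462 TPM against 847 and 831 TPM (−0.46, adjusted p = 0.216), and ND4 5410.1 and 8421 TPM against 4903 and 5399 TPM (−0.39, adjusted p = 0.268). ND5 had 6159 and 9730.2 TPM against 6207 and 6129 TPM (−0.33, adjusted p = 0.351), and ND6 4854 and 7741 TPM against 5144 and 5428 TPM (−0.21, adjusted p = 0.549). DMSO replicate 3 was the highest library for all 7, the library in which the nuclear subunits were lowest. The median over the 7 was −0.39 with all libraries and 0.00 without DMSO replicate 3, with 0 passing. Without DMSO replicate 2 it was −0.71 and all 7 were called lower. It was −0.34 without CX-5461 replicate 2 and −0.41 without CX-5461 replicate 3, with 0 passing. After the TPM were rescaled without mitochondrially encoded genes, the median over the nuclear subunits was 0.34 and that over all genes 0.02. This rescaling multiplies the nuclear genes of a library by a shared factor. The distance between these medians, 0.33, could therefore hardly change.

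**Figure D4:**
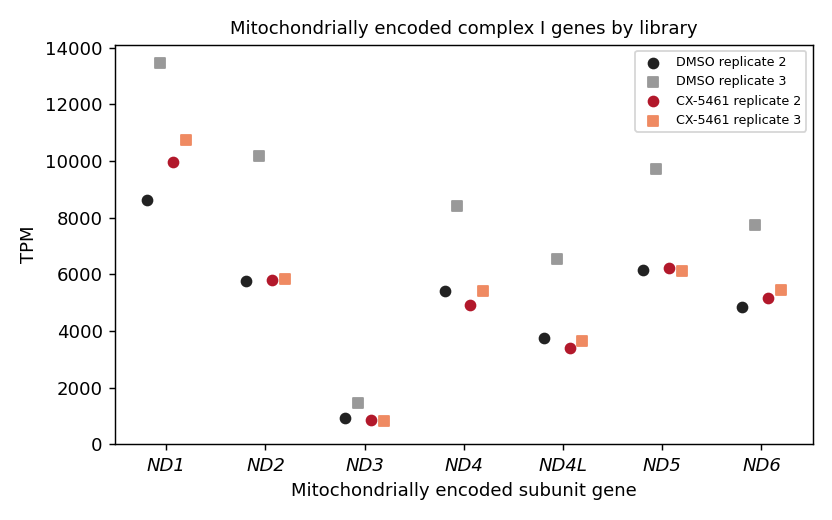
TPM of the 7 mitochondrially encoded complex I subunit genes in each of the 4 libraries, 1 point per library, on a linear axis from 0. DMSO replicate 3 is highest for all 7 genes, and the other 3 libraries lie close together.

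Assembly proteins without the Nduf name were read from a list of 13, of which 12 were in the table and 11 were tested. Of the 11, 3 rose (27.3%, beside 11.6% of all genes) and 1 fell (beside 8.21% of all genes). Their median was 0.11. Tmem70, which acts in assembly of ATP synthase and complex I, had 105 and 87.0 TPM with DMSO and 150.1 and 162 TPM with CX-5461 (0.70, adjusted p = 0.0124). Timmdc1, a membrane-arm factor, had 36.1 and 33.2 TPM against 48.0 and 51.7 TPM (0.51, adjusted p = 0.0188), and Lyrm2, a LYR protein, 23.4 and 17.1 TPM against 35.1 and 30.7 TPM (0.69, adjusted p = 0.0384). Aifm1, the apoptosis-inducing factor, which is needed for complex I biogenesis, fell from 52.6 and 47.2 TPM to 33.0 and 31.9 TPM (−0.60, adjusted p = 0.0116). Of 10 regulators of mitochondrial biogenesis that were tested, 1 rose, Esrra (10%, beside 11.6% of all genes). Esrra went from 40.6 and 30.1 TPM to 63.1 and 61.7 TPM (0.82, adjusted p = 0.0180). Next by adjusted p were Ppargc1b, with 1.76 and 1.5 TPM against 0.269 and 0.497 TPM (−0.93, adjusted p = 0.0626), and Yy1, with 70.4 and 65.5 TPM against 79.3 and 92.2 TPM (0.33, adjusted p = 0.0828).

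Nuclear genes of complexes III to V also stood above the median of all genes. Of 40 tested, 6 rose (15%, beside 11.6% of all genes) and 0 fell, with a median of 0.33, or 0.13 with 4 passing without DMSO replicate 3. Cox6b2, a testis-type subunit of complex IV, led them with 65.1 and 50.3 TPM against 201 and 197 TPM (1.78, adjusted p = 0.00131). Cox8a had 694 and 689.7 TPM against 978 and 984 TPM (0.50, adjusted p = 0.00994), and Atp5mpl 51.2 and 41.7 TPM against 68.6 and 69.4 TPM (0.57, adjusted p = 0.0256). Of the 79 mitochondrial ribosomal protein genes 5 rose (6.33%), with a median of 0.13. Among them were Mrpl24 (0.52, adjusted p = 0.0207), Mrps14 (0.91, adjusted p = 0.0272) and Mrpl57 (0.78, adjusted p = 0.0366). The difference between complex I and these lists was not tested.

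DMSO replicate 3 also differed by gene length, and many complex I genes are short. Among genes of at least 5 TPM on average with exons of up to 1000 bases, the median of DMSO replicate 3 minus replicate 2 was −0.17 over 765 genes, and −0.08 over the 6010 genes above 4000 bases. The median difference of CX-5461 minus DMSO over those 765 short genes was 0.06, while the 10 subunits and factors in that class had 0.59. The 18 with 1000 to 2000 bases had 0.35, beside 0.13 over 1261 genes, and the 12 with 2000 to 4000 bases had 0.17, beside 0.09 over 3265 genes. The 5 above 4000 bases had 0.42, beside 0.06 over 6010 genes. Exon length here merges the exons of all annotated transcripts of a gene. A gene with short transcripts can therefore fall in a long class. The median exon length was 1234 bases for the accessory subunits, 2178 for the core and 1802 for the Ndufaf genes. The part of length in the result was not tested.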

How the data were processed

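Poly(T)-selected RNA of 4 libraries was sequenced as paired-end reads on an Illumina NovaSeq instrument; per the labels, BMKCloud tools cleaned the reads. The authors deposited TPM values, whose columns each sum to 1000000. Build mm10 comes from the submitters' processing notes. For the aligner, the counter, the gene lengths and the use of strand, the entry is: not given in the sources used here. TPM is relative: when abundant transcripts increase, other values drop. Groups and replicate numbers were read from the sample titles, and 0 columns were left unused.

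The test was limma 3.58.1 (R 4.3.3; eBayes with trend and robust options, no covariate) on log2(TPM + 1) of genes averaging 1 TPM or more, with Benjamini-Hochberg adjustment over all 14621 genes and a threshold of 0.05. The fit had 2 residual and 3.75 prior degrees of freedom. With 2 libraries per group the smallest two-sided p of an exact permutation test is 0.333. The procedure was tested on simulated data, in which more of the calls were false than the threshold promises.

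Exon lengths and coordinates came from GENCODE M21 (mm10). Read numbers were recovered from TPM times exon length; 69.4% of 71196 values came within 0.01 of whole reads (2% would by chance), so reads are approximate and their absolute scale is uncertain. Intervals for counting error are not given because the tested values are TPM. Across all genes, 165 rows share all 4 values with another row.

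The members and lists were chosen with earlier results of these data known. Named with values were every Nduf gene that passed, the core subunits, all Ndufaf genes, the Ndufa4 pair, the 3 highest and 3 lowest members by mean TPM, those with the largest differences, all mitochondrially encoded subunits and up to 3 genes per other list by adjusted p; Ndufs4, Ndufc1, Ndufa1, Ndufa10, Ndufb4, Ndufb5 and Ndufb8 were added after their values were seen. A gene that this rule names is not reported here. Alternatives were other pseudocounts, filters and scalings, limma with its trend and robust options off, a block for replicate number, each library left out and, chosen after seeing the data, limma's voom on recovered reads. Python 3.11.15 with pandas 2.3.3, numpy 2.4.6 and matplotlib 3.10.9 was used for tables and figures.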

Additional observations from a re-analysis of the deposited data

How the results depend on the processing

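The 12 subunits called higher became 2 with no filter on low values, 3 without limma's trend and robust options, and 0 to 26 with single libraries left out; other settings gave 12 to 17. Over all genes the calls were 1694 higher and 1201 lower, against 1051 and 823 with no filter, 1128 and 965 without trend and robust options and 2381 and 2038 with voom on recovered reads. The median over the subunits ranged from 0.19 to 0.59 with single libraries left out. For the Ndufaf genes, calls ranged from 0 to 2 and the median from 0.10 to 0.19 with single libraries left out; the median was 0.05 after median-of-ratios scaling, 0.06 after rescaling without mitochondrially encoded genes and 0.07 with voom. These scalings moved the median of all genes from 0.07 to 0.01 and 0.02. They multiply the nuclear genes of a library by a shared factor. The distance of 0.33 between the subunits and all genes could therefore hardly change. Of the 14 Nduf genes called, 4 were still called with no filter, 5 without trend and robust options, 13 after either scaling, 12 without DMSO replicate 2, 7 without DMSO replicate 3 and 1 without either CX-5461 library, where the group left with 1 library took its spread from the other.

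Differences of Nduf genes and mitochondrially encoded subunits that turned sign are given here, apart from some that came to −0.00. For some the other end of the range with a library left out is added, and the cause was not tested. After median-of-ratios scaling Ndufaf1 was −0.04, Ndufaf4 −0.01, Ndufb5 −0.01 and Ndufv2 −0.01. After rescaling without mitochondrially encoded genes Ndufaf1 was −0.03, Ndufb5 −0.01 and Ndufaf4 −0.00. With voom Ndufaf1 was −0.01. Without DMSO replicate 3 Ndufaf1 was −0.21, Ndufaf2 0.02, Ndufs1 −0.01, Ndufaf6 −0.19, Ndufa5 −0.14, Ndufb5 −0.03, Ndufs5 −0.22, Ndufs6b −0.85 and Ndufv1 −0.03. Of the mitochondrially encoded genes ND1 was 0.26, ND2 0.01 and ND6 0.12 without that library. Without CX-5461 replicate 3 Ndufa12-ps was −0.18, Ndufaf1 −0.17, Ndufaf6 0.07, Ndufb5 −0.03 and Ndufv2 −0.08. Without CX-5461 replicate 2 Ndufa12-ps was 0.40, Ndufaf2 0.10, Ndufs6b −0.05 and Ndufv2 0.20, and without DMSO replicate 2 Ndufaf1 was 0.26, Ndufaf6 0.13 and Ndufs6b 1.26.

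With the replicate number as a block, 15 subunits passed and all 14 called genes were still called. The deviations of same-numbered libraries from their group means correlated at r = 0.0307 across genes. This value does not tell whether same-numbered libraries were prepared together. Recovered reads came to 36.3M to 39.4M per library, and the lowest factor had 174 reads in a library.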
